A study of Mus musculus with 35 samples.

Results

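The genes described here encode the machinery of oxidative phosphorylation: every gene on the array whose platform symbol begins with Nduf, Uqcr or Atp5, or with Cox followed by a digit from 4 to 8, together with Sdha, Sdhb, Sdhc and Sdhd. The rule found 90 genes among the 18193 that the array measures, and 88 of these passed the filter on dim probe sets, among 13004 genes tested. They comprised 33 complex I subunits, 8 complex I assembly factors (Ndufaf genes), 4 subunits of complex II, 8 of complex III, 18 of complex IV and 17 of complex V. The pattern on symbols also catches a few proteins that are no fixed subunit, such as the assembly factors and Cox7a2l, a factor of respiratory supercomplexes. Whole-kidney RNA of FVB/NJ mice was hybridised to 35 Affymetrix arrays, and the study compared kidneys of diabetic OVE26 mice with kidneys of control mice. Diabetic kidneys took 6 arrays at 2 months of age, 7 at 4 months and 6 at 8 months, and control kidneys took 6, 4 and 6. OVE26 mice, named in the title of the series, carry a calmodulin transgene in their pancreatic beta cells and develop insulin-deficient diabetes early in life, so the transgene acts outside the kidney. The labels number the arrays within an age and group without saying that each comes from a separate animal, so the p-values measure the spread between these arrays, whose number limits the precision.

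Oxidative phosphorylation is the step in the mitochondrial inner membrane where electrons from NADH enter at complex I and electrons from succinate at complex II. They pass through coenzyme Q to complex III, through cytochrome c to complex IV and onto oxygen, and the proton gradient built on the way drives ATP synthesis by complex V. Tubule cells of the kidney, those of the proximal tubule and thick ascending limb above all, are packed with mitochondria that pay for the reabsorption of sodium. The nuclear genes of these complexes were among the bright genes of these arrays. Of the 88 genes, 69 had a mean log2 signal of at least 11, a level reached by 935 of all genes tested.

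Values are log2 signals as deposited. A difference is the diabetic minus the control mean of an age, ± its standard error in a limma fit over all 35 arrays, and a gene is called changed when its p after Benjamini-Hochberg adjustment, taken across all 13004 tested genes, is under 0.05. The ages may have been scaled apart, since the mean signal of an array lay between 6.43 and 6.44 for the youngest kidneys, between 6.02 and 6.04 at the middle age, and at 6.54 on each of the oldest. Levels are therefore compared only within an age. Arrays 5 and 6 of both groups stood apart from arrays 1 to 4 at 2 months on a component with 42.8% of the variance. The 3' over 5' ratio of beta-actin, a sign of RNA quality, was 2.56 (log2) on control array 6 of that age and 0.81 to 1.35 on its companions. Controls 3 and 4 stood apart at 4 months. The tissue label was borne out by proximal tubule markers, whose mean level was 11.76 to 12.41 on the 8-month arrays. In whole-kidney RNA, fewer cells of a type and less RNA per cell cannot be told apart.

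At 8 months the differences of the oxidative phosphorylation genes leaned below 0 in diabetic kidneys, and few genes passed the test. Of the 88 genes, 5 were called lower and 1 higher. The lower genes were Sdha and Sdhb of complex II and Cox6c, Cox7a1 and Cox7a2l of complex IV, and the higher gene was Cox6b2. This is 6.82% of the members, where 16.8% of all genes tested were called at that age. Called lower were 5.68% of members and 6.95% of all genes, and called higher 1.14% and 9.87%, so the share of called genes was not above the background. At an unadjusted p under 0.05, 18 members were lower, 20.5% against 12.4% of all genes, and 2 were higher, 2.27% against 16.2%. The differences were small and leaned one way: 74 of 88 lay below 0, which is 84.1%, against 50.1% of all genes tested. Among genes with a mean log2 signal of at least 11, 60 of 69 members lay below 0. That is 87%, against 56.4% of all 935 such genes. The median over the 88 genes was -0.07, with 0.00 over all genes and -0.02 over all the bright ones. The members are measured on the same 12 arrays and are no independent replicates of this direction. With arrays weighted by their fit the median was -0.036. After quantile normalization over all arrays 12 of 88 members were called, where 19.5% of all genes were. After it within each age 10 members were called, where 18.3% of all genes were. When limma was given no other age, 18.2% of all genes were called and 3 members. Those 3 were Sdha, Sdhb and Ndufaf4, while Cox6b2 (limma, adjusted p = 0.0525), Cox7a2l (0.0682), Cox6c (0.0852) and Cox7a1 (0.104) missed the threshold there. Either quantile normalization kept all 6 calls. Leaving out diabetic array 3 left 2 called members, where 12.6% of all genes were called. There were 10 without diabetic array 4, where 17.9% of all genes were called. There were 3 without diabetic array 2 or 5 or control array 2, 4 or 6, where 13.5% to 16.2% of all genes were.

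At 2 months 2 of 88 genes were called, both lower, which is 2.27% where 2.54% of all genes were called and 1.78% were called lower. At 4 months none of the 88 was called by limma, where 0.969% of all genes were, and 2 had an unadjusted p under 0.05, or 2.27% against 11.4%. The members had a median of -0.01 at the younger age and 0.01 at the middle one, the same as over all genes tested. Control arrays 3 and 4 at 4 months had 7.84 and 8.17 of the clock gene Arntl, and the remaining 4-month arrays had 5.54 to 6.21. With a clock term in the fit the 4-month median of the members was -0.05, and -0.01 over all genes. Below 0 were 49 members at 2 months, which is 55.7% against 54.2% of all genes, and 38 at 4 months, which is 43.2% against 46.5%. The 95% interval of the difference lay within a 1.5-fold change in either direction for 85 of the 88 genes at 2 months, 86 at 4 months and 85 at 8 months.

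**Figure D1:**
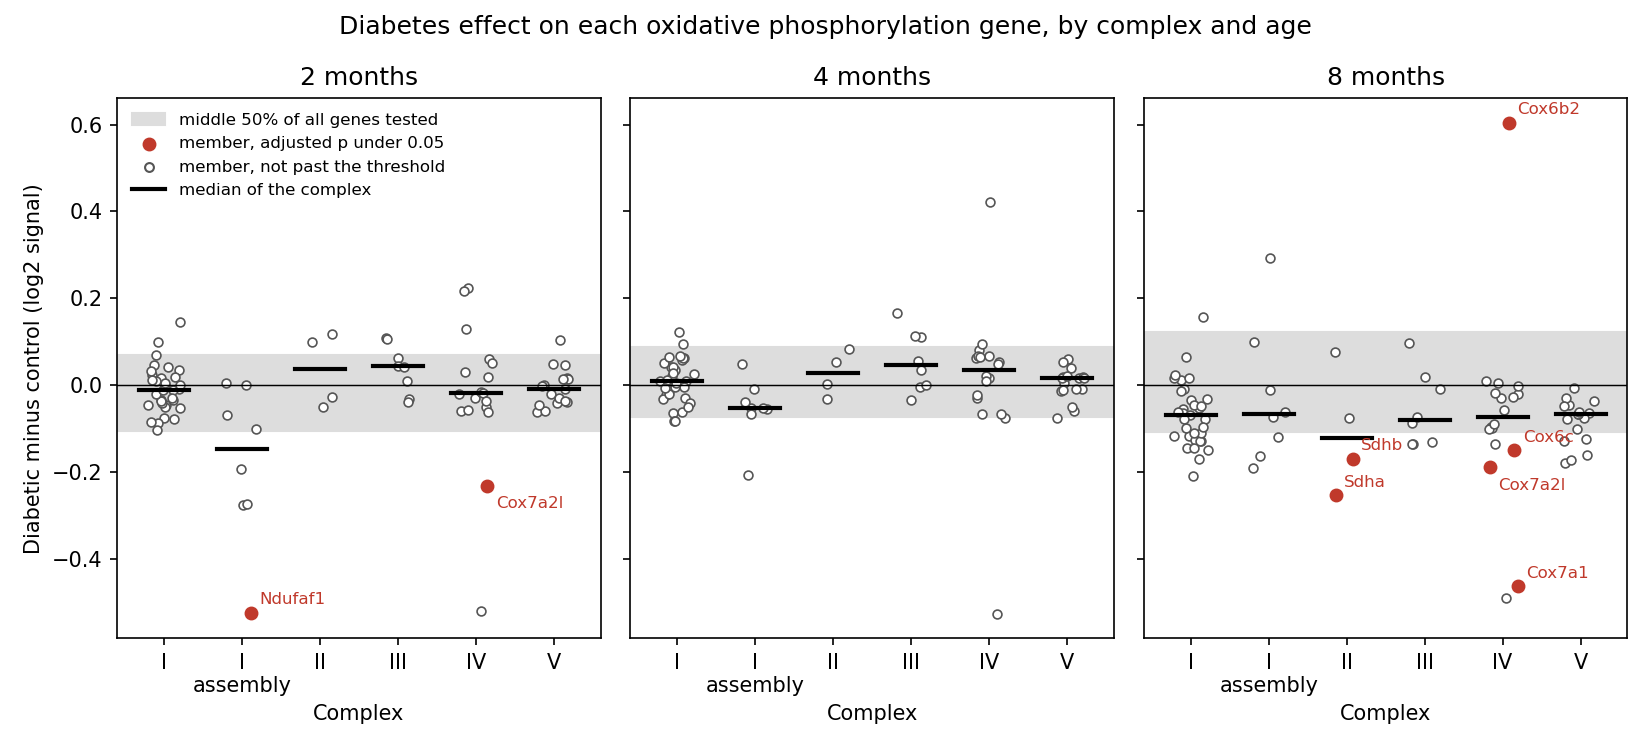
Difference in log2 signal, diabetic minus control, for each of the 88 genes by complex at 2, 4 and 8 months. Red points passed the test and are named, black lines are medians, and the grey band holds the middle 50% of all genes tested. At 8 months every median lies below 0, from -0.12 for complex II to -0.07 for complex V.

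Complex II, succinate dehydrogenase, links the tricarboxylic acid cycle to the chain, and 2 of its 4 subunits were called lower at 8 months. Sdha encodes the flavoprotein subunit that oxidises succinate. Its signals on diabetic arrays 1 to 6 at 8 months were 12.12, 11.94, 11.89, 12.23, 11.85 and 12.11. The control arrays had 12.29, 12.29, 12.22, 12.26, 12.29 and 12.30. All diabetic arrays but the fourth lay below the lowest control. Sdha averaged 12.02 ± 0.15 in diabetic and 12.28 ± 0.03 in control kidneys (SD, n = 6 each), a difference of -0.25 ± 0.06, or 1.19-fold lower (limma, adjusted p = 0.00374). It stayed under the threshold when each 8-month array was left out in turn. A second probe set of Sdha gave -0.26. At 2 and 4 months the difference of Sdha was -0.03 and 0.00.

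Sdhb encodes the iron-sulfur subunit that passes the electrons on. Its signals were 12.86, 12.78, 12.64, 12.94, 12.85 and 12.86 on the diabetic arrays and 13.04, 13.02, 12.97, 12.98, 12.96 and 12.98 on the control arrays. The groups did not overlap. Sdhb was the only member lower without overlap at 8 months, which is 1.14% of members where 4.28% of all genes were. The difference was -0.17 ± 0.05, or 1.12-fold lower (limma, adjusted p = 0.0115). Without diabetic array 3 the adjusted p was 0.0513. The membrane anchors Sdhc and Sdhd, which hold the enzyme in the inner membrane, stood at -0.07 ± 0.07 and 0.08 ± 0.07 and were not called. Whether the subunits differ from each other in response was not tested.

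The stretch before the transcription start is shown for Sdha and Sdhb, which fell together, and for Cox7a1 and Cox6b2, which had the largest differences in either direction among the genes called at 8 months. The sequences are the 120 bases before the start in RefSeq, build GRCm38.p6, 5′ to 3′ on the strand of the gene. Capitals mark the motif of NRF1, here the letters GCGCA and GCGC with any 1 base between, a transcription factor of respiratory genes in mammals. The places are chr13:74350241-74350360 on the minus strand for Sdha and chr4:140961151-140961270 on the plus strand for Sdhb. They are chr7:30184051-30184170 on the plus strand for Cox7a1 and chr7:4753095-4753214 on the minus strand for Cox6b2.
Sdha: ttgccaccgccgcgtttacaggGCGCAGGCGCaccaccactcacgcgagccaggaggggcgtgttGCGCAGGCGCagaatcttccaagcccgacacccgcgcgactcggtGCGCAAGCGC
Sdhb: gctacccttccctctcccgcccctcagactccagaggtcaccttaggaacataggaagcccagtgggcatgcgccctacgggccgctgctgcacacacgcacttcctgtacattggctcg
Cox7a1: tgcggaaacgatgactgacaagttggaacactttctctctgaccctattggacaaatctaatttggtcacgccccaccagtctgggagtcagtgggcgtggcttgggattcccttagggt
Cox6b2: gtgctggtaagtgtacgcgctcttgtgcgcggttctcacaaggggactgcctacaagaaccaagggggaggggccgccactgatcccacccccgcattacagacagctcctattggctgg
The motif stands at 3 places before Sdha, its first base at -98, -55 and -10 from the start, and at none in the other 3 stretches. Both strands were searched over the 250 bases before each start, and 74 of the members had a window in the table. It was found in 13 of 79 windows of members, or 16.5%, and in 3.74% of all 32851 windows. The form with a free base was chosen after a stricter form had been searched. CCGGAAGT, a motif of GABP, was found in 3.8% of the members' windows and 2.88% of all windows. TCAAGGTCA, a motif of estrogen-related receptors, was found in 1.27% and 0.387%. A match is a description of letters, and the arrays hold no measurement of binding. Of the 12 genes with an NRF1 match 11 were tested, and Sdha was the only one called at 8 months. Of the 11, 8 lay below 0, among them Atp5k at -0.17 and Atp5g2 at -0.16, and 3 above, with Ndufaf4 the highest at 0.29.

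**Figure D2:**
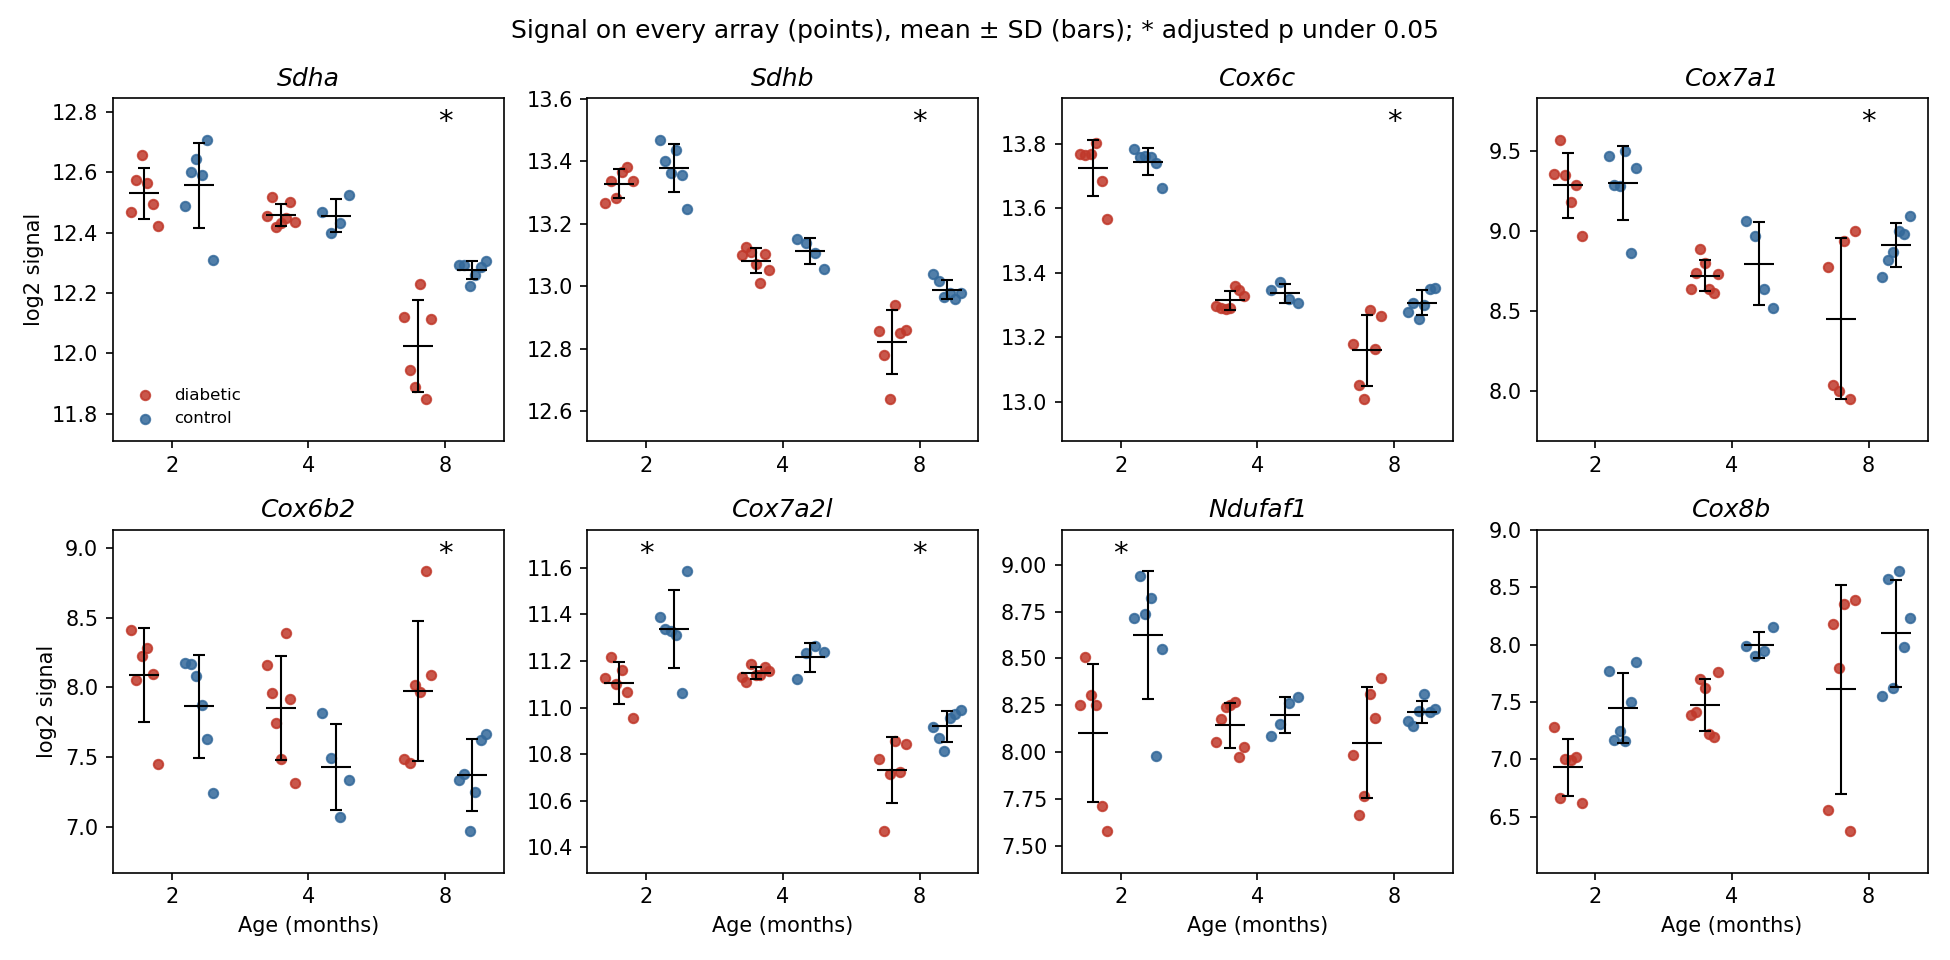
Log2 signal of 8 members on every array, diabetic (red) left of control (blue) at each age, with mean ± SD and a star where the adjusted p was under 0.05. Sdhb has no overlap at 8 months, while in Cox7a1 3 diabetic arrays lie at 7.95 to 8.04 and the other 3 within the range of the controls.

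Complex I takes electrons from NADH. None of its 33 subunits was called at any age, and their median difference was -0.01, 0.01 and -0.07 at the 3 ages. At 8 months 27 of the 33 lay below 0. These are values of the brightest probe set of each gene, and another probe set was called lower at 8 months for Ndufb11 (-0.20 ± 0.05, limma, adjusted p = 0.0109 over all 34945 probe sets) and Ndufb2 (-0.27 ± 0.08, limma, adjusted p = 0.0269). Their brightest sets stood at -0.13 each. The called set of Ndufb2 was dim, with a mean signal of 6.61. Another set of Ndufb2, with a mean of 11.30, stood at -0.12 ± 0.07 and was not called. When a gene's probe sets were averaged, Ndufb11 and Ndufs8 were called lower at 8 months. Of 78 further probe sets of the members above the filter, 5 were called lower at 8 months and 0 higher. Of all 34945 probe sets, dim ones included, 9.69% were called, which is no like background for sets above the filter. The share called lower is not given for it. Ndufs1, the large iron-sulfur subunit of the NADH-oxidising arm, had signals of 11.86, 11.74, 11.57, 11.98, 11.63 and 11.91 on the diabetic arrays. The controls had 12.12, 11.98, 12.00, 11.94, 11.97 and 11.95, and all diabetic arrays but the fourth lay below them. The difference of -0.21 ± 0.08 missed the threshold (limma, adjusted p = 0.0568). The iron-sulfur subunit Ndufs8 stood at -0.17 ± 0.06 (limma, adjusted p = 0.0675) and the core subunit Ndufs3 at -0.14 ± 0.06.

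Some complex I subunits lay above 0. Ndufb8, an accessory subunit of the membrane arm whose protein is often used as a marker of assembled complex I, had 12.30, 12.53 and 12.61 as the lowest, median and highest diabetic signal at 8 months. The controls had 12.35, 12.44 and 12.49. The difference was 0.06 ± 0.05 and not called, with the groups overlapping. Ndufb1, the highest of the subunits, stood at 0.16 ± 0.08 and was not called either. Ndufb4 did not pass the filter on its own probe set. Probe sets shared by Ndufb4 and its near copies, at a mean signal of 12.26 and 11.95, stood at 0.00 and -0.03 at 8 months. For 8 more symbols of the pattern, among them Ndufa11 and Ndufs6, every probe set names several genes. The probe sets of Ndufa11 and its copy with a mean of 11.45 stood at -0.07, and that of Ndufs6 and its copy at -0.08.

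The 8 assembly factors build complex I and do not stay in it. Ndufaf1, which joins early membrane-arm intermediates, was the gene with the largest difference among the members at 2 months. It had 8.25, 8.51, 8.30, 8.25, 7.71 and 7.58 on diabetic arrays 1 to 6 and 8.72, 8.94, 8.74, 8.82, 7.98 and 8.55 on control arrays 1 to 6. The groups overlapped through control array 5. Within arrays 1 to 4 every diabetic array lay below every control. Ndufaf1 averaged 8.10 ± 0.37 in diabetic and 8.62 ± 0.34 in control kidneys (SD, n = 6 each), a difference of -0.52 ± 0.14, or 1.44-fold lower (limma, adjusted p = 0.0328). The difference was -0.48 within arrays 1 to 4 (limma, adjusted p = 0.0149) and -0.62 within arrays 5 and 6 (limma, adjusted p = 0.049).

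Without diabetic array 5 the adjusted p was 0.108, and it also missed the threshold without diabetic array 6 or any of control arrays 1 to 4. Fitting only the 2-month arrays gave 0.298. Same-numbered arrays deviated together at 2 months, and blocking on the number gave Ndufaf1 an adjusted p of 0.0027 in limma. At 4 and 8 months Ndufaf1 stood at -0.06 ± 0.15 and -0.16 ± 0.14 and was not called. The change of its difference between 2 and 4 months was 0.47 ± 0.20 (limma, adjusted p = 0.943). Ndufaf8 lay below 0 at every age, at -0.27 ± 0.09, -0.21 ± 0.10 and -0.19 ± 0.09, and was not called at any. Ndufaf5, an enzyme that modifies a complex I subunit, stood at -0.27 ± 0.12 at 2 months and was not called. The assembly factors had medians of -0.15, -0.05 and -0.07 at the 3 ages. Ndufaf4 stood on the other side at 8 months, at 9.96, 9.74, 9.63, 9.97, 10.24 and 9.87 in diabetic against 9.67, 9.44, 9.61, 9.64, 9.69 and 9.60 in control kidneys. That is 0.29 ± 0.11 (limma, adjusted p = 0.0718), with 5 of 6 diabetic arrays above all controls. A second probe set of Ndufaf4 stood at 0.13 ± 0.12 at 8 months and -0.20 ± 0.12 at 2 months and was not called.

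Complex III, which moves electrons from coenzyme Q to cytochrome c, had no called member among 8, although a second probe set of Uqcrh, the hinge protein, was called lower at 8 months (-0.18 ± 0.05, limma, adjusted p = 0.0222) where its brightest stood at -0.13 ± 0.09. Its medians were 0.04, 0.05 and -0.08 at the 3 ages. Uqcrc1, a core subunit, stood at 0.11 ± 0.05, 0.11 ± 0.06 and -0.09 ± 0.05. The change from 2 to 8 months was -0.20 ± 0.07 (limma, adjusted p = 0.134). Its partner Uqcrc2 stood at -0.13 ± 0.06 at 8 months, and Uqcrfs1, the Rieske iron-sulfur protein that takes the electron from coenzyme Q, at -0.07 ± 0.05. Uqcrq, a small subunit, lay above 0 at every age, at 0.11, 0.17 and 0.10.

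Complex IV, cytochrome c oxidase, reduces oxygen and differs from the other complexes in having isoforms that belong to particular tissues. The subunits found in most tissues had small differences. Cox4i1, the common isoform of subunit 4, had 13.33, 13.41 and 13.50 as lowest, median and highest diabetic signal at 8 months and 13.47, 13.52 and 13.55 in controls. Its difference of -0.10 ± 0.04 was not called (limma, adjusted p = 0.139). Cox5b, which binds zinc, stood at -0.03 ± 0.06. Cox6c, a small subunit, had 13.18, 13.05, 13.01, 13.28, 13.17 and 13.27 on the diabetic arrays and 13.28, 13.31, 13.26, 13.30, 13.35 and 13.35 on the controls. In 4 of 6 diabetic arrays it lay below all controls, and the difference of -0.15 ± 0.05, or 1.11-fold, was called (limma, adjusted p = 0.0309). A second probe set gave -0.19 and was not called (limma, adjusted p = 0.168 over all probe sets). That second set already stood at -0.19 at 2 months and -0.13 at 4 months, where the brightest set stood at -0.02 at both. Without diabetic array 3 the adjusted p of the brightest set was 0.109 in limma. The brightest set also missed the threshold without diabetic array 2 or control array 2, 5 or 6.

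Cox7a1 is the isoform of subunit 7a known from heart, skeletal muscle and brown fat. At 8 months it had 8.77, 8.04, 8.00, 8.94, 7.95 and 9.00 on the diabetic arrays and 8.71, 8.82, 8.87, 9.00, 8.98 and 9.10 on the controls. Arrays 2, 3 and 5 lay far below the controls and the other 3 among them. The difference was -0.46 ± 0.15, or 1.38-fold lower (limma, adjusted p = 0.0269). The SD was 0.50 in diabetic and 0.14 in control kidneys, and without diabetic array 3 the adjusted p was 0.0999. It also missed the threshold without diabetic array 2 or 5 or control array 4 or 6. Cox7a1 stood at -0.01 ± 0.15 at 2 months and -0.07 ± 0.16 at 4 months, and the change from 2 to 8 months was -0.45 ± 0.21 (limma, adjusted p = 0.257).

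Cox8b, the subunit 8 isoform of the same tissues, lay below 0 at every age and was not called at any. Its differences were -0.52 ± 0.25, -0.53 ± 0.27 and -0.49 ± 0.25 at 2, 4 and 8 months. At 4 months the diabetic arrays had 7.20, 7.41 and 7.76 as lowest, median and highest value and the controls 7.99, 7.90, 7.94 and 8.15, with no overlap. It was the only member lower without overlap at 4 months, where 2.44% of all genes were. Fitting only the 4-month arrays, it was called (limma, adjusted p = 0.0258). At 8 months its diabetic arrays were spread widely, at 6.55, 8.18, 7.80, 8.36, 6.37 and 8.39, against 7.55, 8.57, 7.62, 8.64, 7.98 and 8.23 in the controls.

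Because Cox7a1 and Cox8b belong to brown fat and muscle, markers of these tissues stand beside them. Ucp1, the uncoupling protein that defines brown fat, had 4.14 to 6.37 in the 4-month diabetic kidneys and 9.21, 9.03, 5.39 and 6.52 in the controls, a difference of -2.28 ± 0.50 (limma, adjusted p = 0.0145). At 8 months it had 4.74, 5.21, 5.07, 4.69, 5.12 and 4.70 in diabetic kidneys and 5.22, 7.99, 6.33, 7.97, 7.65 and 7.54 in controls. Of the 7 fat markers tested, Ucp1 and Cidea were lower at 8 months and Plin4 was higher. The mean log2 level over the 9 fat markers measured was 7.17 to 7.50 in diabetic and 6.05 to 8.48 in control kidneys at 8 months. Of the 8 muscle markers, 7 did not pass the filter, and Ckm, the muscle creatine kinase gene, stood at -0.12 ± 0.10. The 8-month diabetic values of Ucp1 all lay under the filter level of 5.27 and have no order among themselves. The part of attached fat in these values was not tested.

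Cox6b2, an isoform of subunit 6b known from testis, was the member that rose. At 8 months it had 7.48, 7.46, 8.02, 7.97, 8.83 and 8.09 on the diabetic arrays and 7.34, 7.38, 6.97, 7.25, 7.62 and 7.67 on the controls, with 4 of 6 diabetic arrays above all controls. It averaged 7.98 ± 0.50 in diabetic and 7.37 ± 0.26 in control kidneys (SD, n = 6 each), a difference of 0.60 ± 0.20, or 1.52-fold higher (limma, adjusted p = 0.0337). Without diabetic array 5 the difference was 0.43 and the adjusted p was 0.13 in limma, and the threshold was also missed without diabetic array 3 or 6 or any of control arrays 1 to 4. At 2 and 4 months it stood at 0.22 ± 0.20 and 0.42 ± 0.22 and was not called. The other isoforms of limited tissues were not called. At 8 months Cox6a2, of heart and muscle, stood at 0.00, Cox4i2, of lung and low oxygen, at -0.10, Cox8c, of testis, at -0.09 and Ndufa4l2, a hypoxia-induced relative of Ndufa4, at -0.02. Cox7b2, of testis, lay between 2.52 and 3.98 on every array and did not pass the filter.

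Cox7a2l helps complexes III and IV to join into supercomplexes. It was called at both ends of the series. At 2 months it had 11.13, 11.22, 11.10, 11.16, 11.07 and 10.96 on the diabetic arrays and 11.39, 11.34, 11.33, 11.31, 11.06 and 11.59 on the controls, where control array 5 made the overlap. The difference was -0.23 ± 0.07 (limma, adjusted p = 0.0491). Blocking on the replicate number gave an adjusted p of 0.0614, within arrays 1 to 4 it was 0.0834 at -0.19, and within arrays 5 and 6 it was 0.124 at -0.31. At 8 months it had 10.78, 10.47, 10.71, 10.86, 10.72 and 10.85 against 10.92, 10.87, 10.81, 10.95, 10.97 and 10.99, a difference of -0.19 ± 0.07 (limma, adjusted p = 0.044). Its other probe sets gave -0.18 and -0.20 at 8 months. Both calls missed the threshold without most single arrays: the adjusted p reached 0.119 at 2 months without diabetic array 6 and 0.143 at 8 months without diabetic array 2. At 4 months it stood at -0.07 ± 0.07.

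Complex V, the ATP synthase, had no called member among 17, yet at 8 months each of the 17 lay below 0. Below 0 were 50.1% of all genes tested and 56.4% of genes with a mean log2 signal of at least 11. The differences ran from -0.18 for Atp5e to -0.01 for Atp5o. Atp5o, at -0.01 ± 0.06, rose to as much as 0.02 with 1 array left out, and its second probe set stood at 0.07 ± 0.10. Atp5a1 and Atp5b, the alpha and beta subunits of the catalytic head, stood at -0.08 ± 0.05 and -0.06 ± 0.05. Atp5c1, the central stalk that turns inside the head, had 13.02, 13.02, 12.82, 13.09, 12.95 and 13.01 on the diabetic arrays and 13.18, 13.11, 13.13, 13.08, 13.06 and 13.10 on the controls. It was lower than all controls on 5 of 6 diabetic arrays, at -0.12 ± 0.05 (limma, adjusted p = 0.0734). Atp5k, a small membrane subunit, stood at -0.17 ± 0.08 with 11.06 to 11.57 in diabetic and 11.48 to 11.67 in control kidneys. The median of the complex was -0.01 at 2 months and 0.02 at 4 months.

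**Figure D3:**
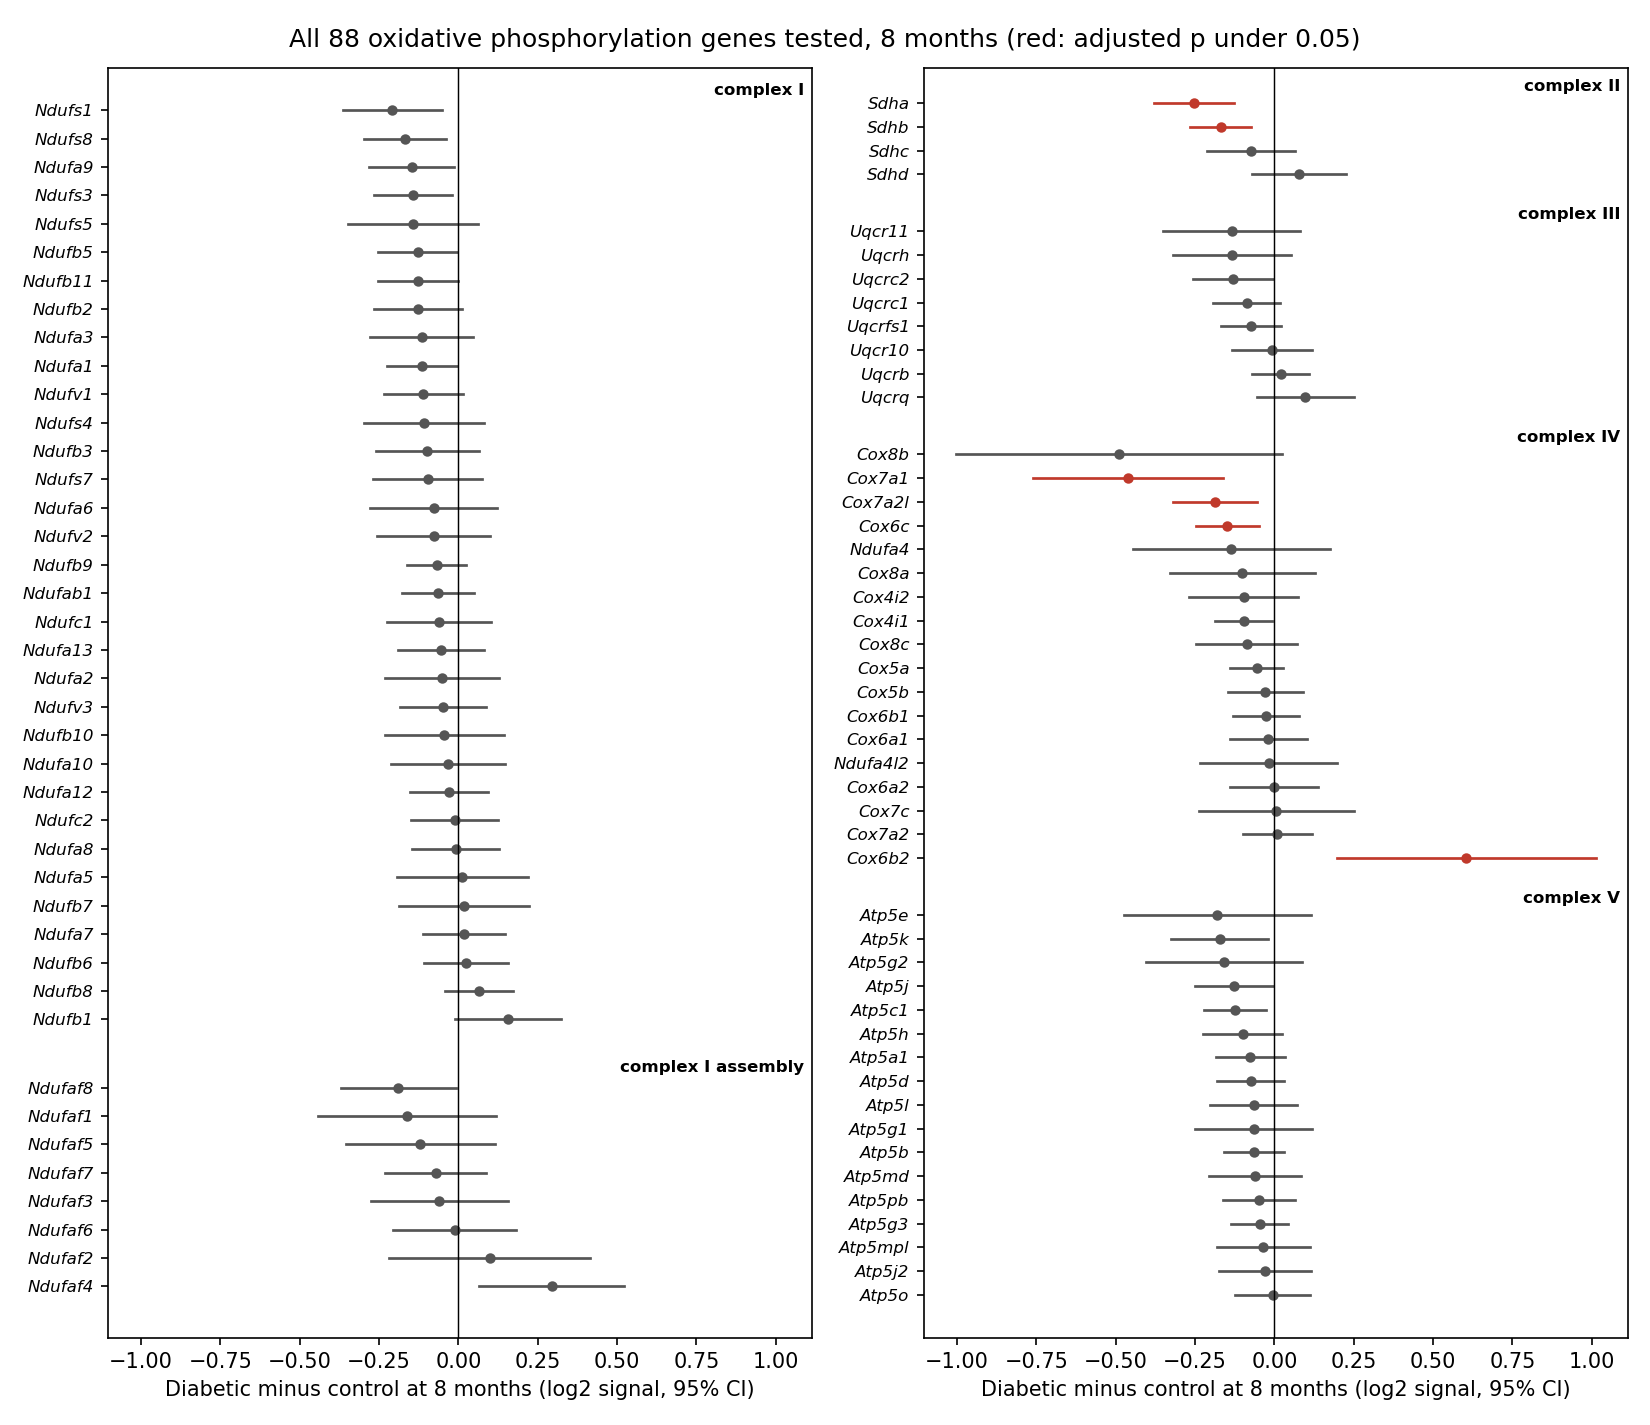
Difference in log2 signal at 8 months for each of the 88 genes with its 95% interval, grouped by complex and ordered by size; red genes passed the test. In complex V all 17 points lie below 0, from -0.18 to -0.01, and none is red.

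The 8-month lean below 0 was uneven among the diabetic arrays. For each array the median over the 88 genes of its value minus the control mean of the age was taken. It was -0.03, -0.12, -0.24, 0.05, -0.14 and 0.05 on diabetic arrays 1 to 6 and -0.03 to 0.03 on the controls. The SD of these medians was 0.12 among diabetic and 0.02 among control arrays. Diabetic arrays 2, 3 and 5 were low and arrays 4 and 6 were above every control. On arrays 2, 3 and 5, 61, 75 and 61 of the 88 genes lay below all 6 controls, which is 69.3%, 85.2% and 69.3%, against 33%, 31.8% and 24.8% of all genes tested. On arrays 1, 4 and 6 the counts were 25, 6 and 9, or 28.4%, 6.82% and 10.2%, against 21.4%, 18.9% and 21.2%. Arrays 4 and 6 had 33 and 34 members above all controls, or 37.5% and 38.6%, against 23.9% and 26.3% of all genes. In a check chosen after seeing the data, 64 of 88 genes lay below 0 without diabetic array 3 and the median was -0.04. Leaving out any other single 8-month array gave 67 to 79 genes.

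Each of complexes I to V was likewise lowest on diabetic arrays 2, 3 and 5. Complex III stood at -0.08, -0.23 and -0.17 on these arrays and complex IV at -0.08, -0.14 and -0.11. Complex I stood at -0.13, -0.27 and -0.13 on diabetic arrays 2, 3 and 5 and at 0.06 and 0.07 on arrays 4 and 6. Complex V stood at -0.12, -0.19 and -0.16 on arrays 2, 3 and 5 and at 0.05 and 0.02 on arrays 4 and 6. Complex II stood at -0.10, -0.17, -0.31, 0.05, -0.21 and 0.01 on arrays 1 to 6, with 4 of them below every control. The assembly factors were also lowest on these arrays, at -0.28 and -0.27 on arrays 2 and 3. On array 5 they stood at -0.03, inside the control range of -0.06 to 0.05. At 2 months the medians over all 88 genes were 0.03, 0.09, 0.03, 0.06, -0.06 and -0.19 on the diabetic arrays and 0.08, 0.03, 0.00, 0.04, -0.13 and -0.04 on the controls, so arrays 5 and 6 were the low ones in both groups. At 4 months the medians were -0.04 to 0.07 on diabetic and -0.06 to 0.04 on control arrays.

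**Figure D4:**
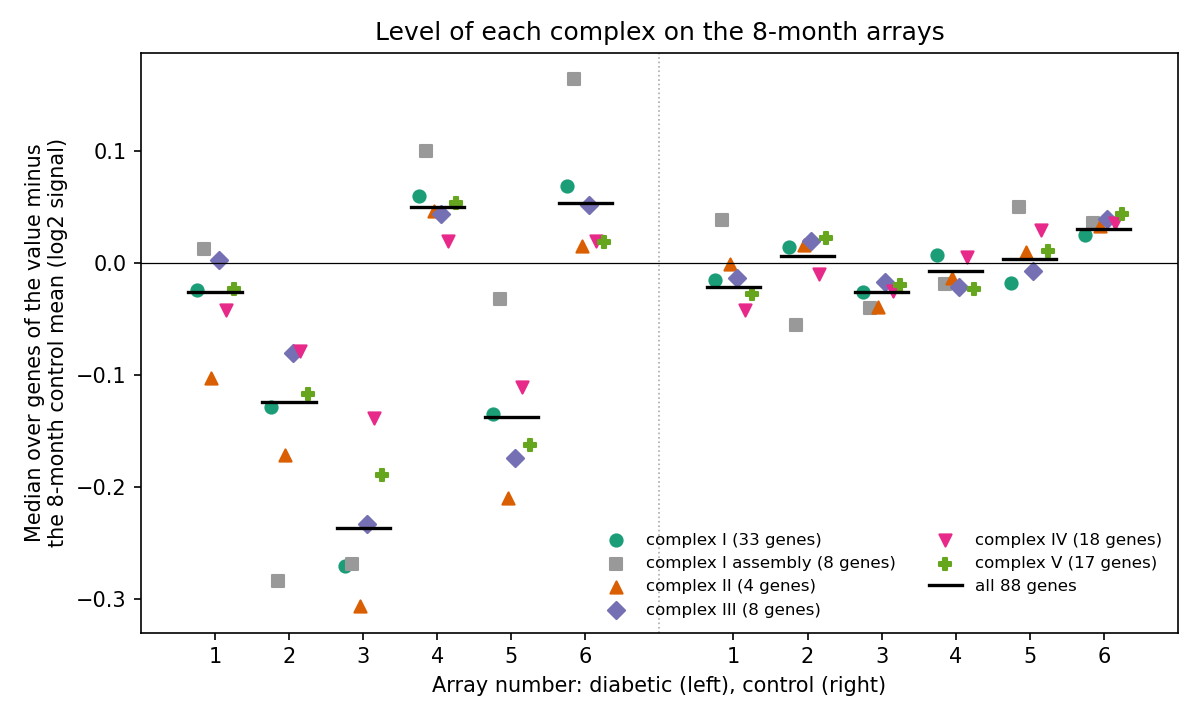
Median over the genes of each complex of the value minus the control mean, for each 8-month array, diabetic left and control right; the black bar is the median over all 88 genes. Diabetic arrays 2, 3 and 5 lie at -0.12, -0.24 and -0.14, while the controls lie from -0.03 to 0.03.

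Markers of tubule cells and of cells that invade a damaged kidney changed at the same age. The proximal tubule list had 0 of 15 genes higher and 9 lower at 8 months, with a median of -0.27. Its mean level was 12.17, 12.12, 11.82, 12.26, 11.76 and 12.15 on diabetic arrays 1 to 6 and 12.31 to 12.41 on controls. Arrays 3 and 5 were lowest, followed by array 2. Of 7 thick ascending limb genes 6 were lower (median -0.33), and of 4 distal convoluted tubule genes 3 were lower (median -0.68). The thick ascending limb level was 11.74, 11.52, 11.37, 11.75, 11.57 and 11.64 against 11.89 to 11.99, and arrays 2, 3 and 5 were lowest. The distal convoluted tubule level was 10.95, 10.39, 10.14, 10.90, 10.12 and 10.81 against 11.23 to 11.36, so arrays 2, 3 and 5 were lowest there too. The injured tubule list had 6 of 6 higher (median 2.00). Its mean level was 9.41, 10.01, 10.51, 8.71, 9.37 and 9.41 in diabetic and 7.50 to 7.80 in control kidneys. Macrophage markers had 9 of 10 higher (median 1.57), with 8.54 to 10.20 against 7.40 to 7.92. Lymphocyte markers had 6 of 6 higher (median 1.17), with 6.57 to 8.21 against 6.25 to 6.46 over the 8 measured. Fibroblast markers had 6 of 7 higher (median 0.89), with 8.51 to 10.93 against 7.88 to 8.91. In the macrophage, lymphocyte and fibroblast lists diabetic array 3 was the highest, at 10.20, 8.21 and 10.93. Diabetic array 5 was the lowest diabetic array in each of them, at 8.54, 6.57 and 8.51, the last inside the control range. Arrays 3 and 5, both low in the members, thus stood apart in the macrophage, lymphocyte and fibroblast lists. In the proximal tubule, thick ascending limb and distal convoluted tubule lists, arrays 2, 3 and 5 were the lowest diabetic arrays. How much of the members' differences goes with these cell types was not tested.

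The other lists at 8 months showed 0 of 6 endothelial genes called, 1 of 5 podocyte genes lower, 3 of 5 intercalated cell genes lower, and 2 of 6 principal cell genes higher with 1 lower. At 2 months 2 of 7 thick ascending limb genes and 1 of 6 principal cell genes were lower, with none called in the other marker lists. With the replicate number as a block these 3 remained called, and Slc7a13 of the proximal tubule (0.83), Trpm6 of the distal convoluted tubule (-0.43) and Csf1r of macrophages (-0.30) were called too. At 4 months 2 intercalated cell genes, 1 principal cell gene, 1 podocyte gene and Ucp1 were lower and 1 injured tubule gene was higher. The clock gene Arntl, which follows the hour of the day, was 6.97, 6.73, 5.65, 5.42, 7.81 and 5.47 on the 8-month diabetic arrays and 5.31 to 6.77 on the controls. With a clock term in the fit the median of the members at 8 months was -0.05, and 0.01 over all genes.

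The differences between ages were tested in the same fit. None of the 88 genes was called for a change of the diabetes difference from 2 to 8 months, where 3.89% of all genes were, and 4 had an unadjusted p under 0.05, or 4.55% against 17.4%. None was called from 4 to 8 months, where 0.877% of all genes were, with 2 at an unadjusted p under 0.05, or 2.27% against 12.4%. None was called from 2 to 4 months by limma, where 0% of all genes were, with 1 at an unadjusted p under 0.05, or 1.14% against 5.08%. The smallest adjusted p was that of Ndufs1, whose difference moved by -0.35 ± 0.11 from 2 to 8 months (limma, adjusted p = 0.0574). Sdha moved by -0.23 ± 0.09 (limma, adjusted p = 0.152).

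Other genes of energy metabolism were examined as lists. The tricarboxylic acid cycle, which feeds NADH and succinate to the chain, had 1 of 12 genes called at 2 months, Ogdh, the oxoglutarate dehydrogenase gene, at 0.26 ± 0.06. With the replicate block Ogdh remained called, and Pdk1 (0.43), Mrpl43 (-0.23) and Slc2a1 (-0.37) of the further lists were called at 2 months as well. None of the 12 was called by limma at 4 or 8 months, and the median at 8 months was -0.02. Cs, the citrate synthase gene often used as a measure of mitochondrial content, stood at 0.03 ± 0.06 at 8 months. None of 15 genes of electron carriers and coenzyme Q synthesis was called at any age, with a median of -0.04 at 8 months and Cycs, cytochrome c, at 0.13 ± 0.07. None of 36 further assembly factors was called at any age, with a median of -0.01 at 8 months. Mitochondrial ribosomal proteins, which make the subunits encoded in mitochondrial DNA, had 3 of 76 higher and none lower at 8 months, with a median of 0.01. The 3 were Mrps18b (0.45 ± 0.10), Mrpl33 (0.40 ± 0.11) and Mrpl57 (0.24 ± 0.08).

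Regulators of mitochondrial biogenesis and of mitochondrial DNA had 5 of 19 lower and 1 higher at 8 months, with a median of -0.12, and none called at 2 or 4 months. Esrrg, an estrogen-related receptor that drives respiratory genes, had 9.66, 9.83 and 9.95 as lowest, median and highest diabetic value and 10.11, 10.16 and 10.39 in controls, with no overlap. Its difference was -0.38 ± 0.12 (limma, adjusted p = 0.0191). The related Esrrb, at -0.45 ± 0.13, and Gabpa, the DNA-binding subunit of GABP, at -0.27 ± 0.07, were also lower without overlap. Ppargc1a, the coactivator PGC-1alpha, was lower by -0.33 ± 0.11, with 9.58, 9.83 and 10.12 in diabetic and 10.06, 10.16 and 10.21 in control kidneys. Its relative Ppargc1b stood at -0.34 ± 0.12 and was called, while Pprc1, the third of that family, was higher at 0.37 ± 0.12. Esrra (0.02 ± 0.07), Nrf1 (0.03 ± 0.13) and Tfam, which packs mitochondrial DNA (-0.12 ± 0.08), were not called.

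Glycolysis had 2 of 14 genes higher and 1 lower at 8 months, with a median of 0.10. Pfkp, the platelet-type phosphofructokinase gene, rose by 0.48 ± 0.11 and Tpi1, triosephosphate isomerase, by 0.17 ± 0.06, while Pfkm, the muscle-type phosphofructokinase gene, stood at -0.32 ± 0.07 and was called lower. Of 11 hypoxia targets 3 were higher and 2 lower at 8 months, with a median of 0.00. Those higher were the vasodilator gene Adm (0.86 ± 0.22), the collagen hydroxylase gene P4ha2 (0.62 ± 0.12) and the oxygen sensor gene Egln3 (0.45 ± 0.14). Those lower were the growth factor gene Vegfa (-0.38 ± 0.09) and Egln1 (-0.29 ± 0.06), the main prolyl hydroxylase of hypoxia-inducible factors. Egln3 was also higher at 4 months, at 0.63 ± 0.15. Of 13 mitochondrial carriers and pores, Ucp1 alone was called, lower at 4 and 8 months.

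**Figure D5:**
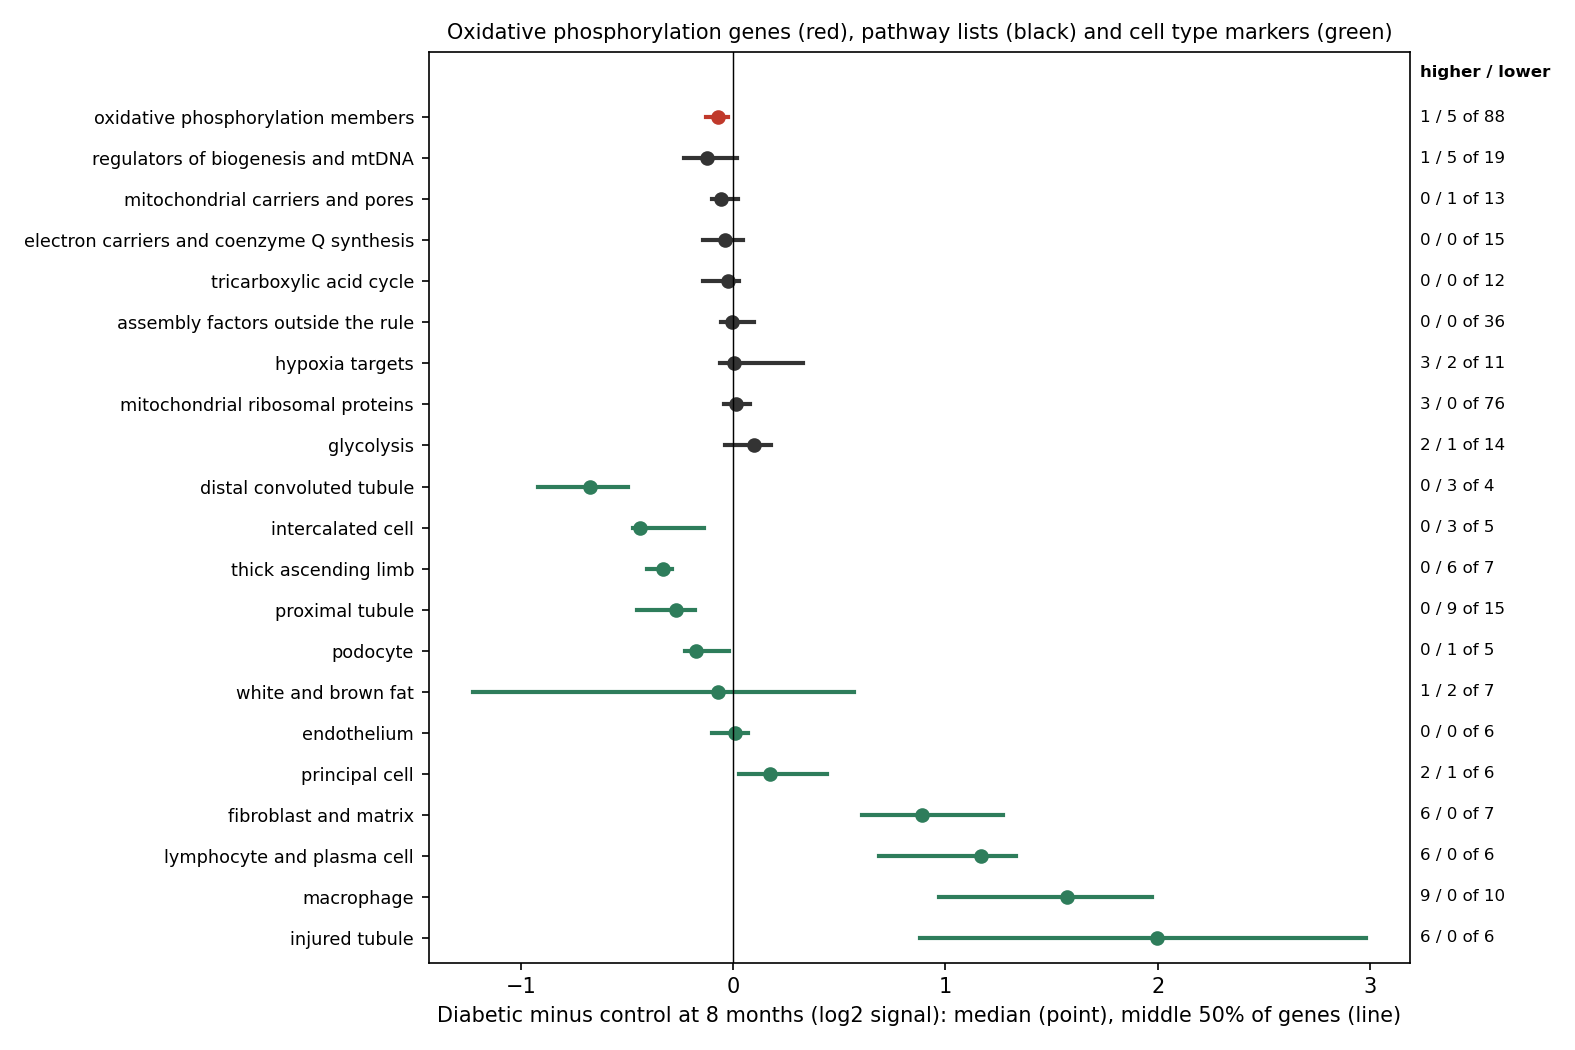
Median difference in log2 signal at 8 months (points) with the middle 50% of genes (lines) for the oxidative phosphorylation genes in red, related pathways in black and cell type markers in green, with the number of genes called higher and lower at the right. The median of the members is -0.07, that of the proximal tubule markers -0.27 and that of the injured tubule markers 2.00.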

How the data were processed

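Total RNA of whole kidney was measured on 35 Affymetrix arrays, biotin-labelled per the labels' protocols. The values of the deposited table are log2 signals per probe set; background correction and normalization by the authors: not given in the sources used here. Of 45101 probe sets, 34945 name 1 gene in the platform annotation, 932 several, 9160 none and 64 are controls; only those with 1 gene were used, the brightest per gene by its mean over all arrays. Genes under the 40th percentile of probe set means (5.27) were left out, leaving 13004 of 18193. limma 3.58.1 in R 4.3.3 fitted 1 mean per age and condition over all 35 arrays, with Benjamini-Hochberg adjustment over all genes tested. The fit was tested on simulated data with known changes. No 2 arrays held identical values.

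The members and the gene lists were chosen with earlier results of these data known. Genes named are the 3 members of each complex with the smallest p at each age, those called, those with the largest differences at 8 months, and a short list of textbook subunits and tissue isoforms. Members were matched to RefSeq by gene identifier, 90 of 90.

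Replicate numbers are shared between groups in the labels. Deviations of same-numbered arrays from their group means correlated at 0.25 to 0.44 in the 6 pairs at 2 months, all above 0.1, so blocked results are given for the 2-month calls. Alternatives covered the probe set rule, the filter, normalization, array weights, a clock term, batches, the replicate block and each array left out in turn.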

Additional observations from a re-analysis of the deposited data

Results flagged for a closer look

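Among 258 groups of arrays examined gene by gene, 33 held an array far from the others of its group by Dixon's criterion, where chance gives about 1 in 20. Control array 6 at 2 months, whose beta-actin ratio was 2.56, was the highest of its group for Atp5d (13.75), Atp5k (13.06), Cox4i1 (14.17), Ndufb11 (13.56) and the dim Cox7b2 (3.763), and the lowest for Cox6c (13.66), Ndufs1 (11.54) and Sdhd (11.5). Control array 5 of that age was the highest for Atp5b (14.02) and the lowest for Atp5j (12.9), Cox7a1 (8.864), Ndufaf5 (7.957) and Ndufs3 (12.34). Diabetic array 6 at 2 months was lowest for Cox6b2 (7.453), Uqcrc1 (12.55) and Uqcrq (12.15). Diabetic array 2 at 2 months stood apart for Cox7b2 (3.166) and Uqcrfs1 (12.87).

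At 4 months diabetic array 1 stood apart for Cox4i2 (4.86), diabetic array 3 for Sdhd (12.29) and Uqcr10 (12.59), and diabetic array 7 for Ndufb8 (12.85). Control array 1 stood apart for Ndufs1 (11.82), control array 2 for Atp5b (13.83) and Cox4i2 (5.257), and control array 4 for Atp5c1 (13.23), Cox4i1 (13.47) and Ndufb8 (12.81). At 8 months diabetic array 2 was the lowest for Cox7a2l (10.47). Control array 1 stood apart for Atp5d (12.96) and Ndufs1 (12.12), and control array 2 for Cox6a2 (6.341) and Ndufaf4 (9.442).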

How the results depend on the processing

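No called difference changed direction under any alternative run, while 180 of 2713 comparisons of named genes not called did. Of members called, 2 at 2 months became 1 with the mean of all probe sets, without the filter and after quantile normalization over all arrays. The count was also 1 with the replicate block and within arrays 1 to 4. In these settings 1.43% to 4.25% of all genes were called. The count was 0 with median centring, the 2-month arrays alone or a clock term, where 0.492% to 2.48% of all genes were. With array weights 4 members were called, where 9.97% of all genes were. The 0 at 4 months became 1 with the 4-month arrays alone and 1 with array weights, where 2.75% and 7.24% of all genes were called. The 6 at 8 months became 12 and 10 after quantile normalization over all arrays and within each age, and 3 with the 8-month arrays alone. Of all genes, 19.5%, 18.3% and 18.2% were called in these settings. Leaving out 1 array gave 0 to 3 at 2 months, 0 to 0 at 4 months and 2 to 10 at 8 months. At 8 months it gave 2 without diabetic array 3, where 12.6% of all genes were called, and 10 without diabetic array 4, where 17.9% were. It gave 3 without diabetic array 2 or 5 or control array 2, 4 or 6, where 13.5% to 16.2% of all genes were called. At 2 months the count was 0 without diabetic array 5 or 6 or any of control arrays 1 to 4, where 1.48% to 2.1% of all genes were called.

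The 8-month median of the members stayed below 0 in every setting and was -0.036 with array weights. The change from 2 to 8 months was called for 3 members after quantile normalization over all arrays or within each age, where 5.14% and 4.6% of all genes were. It was called for 1 with an intensity trend and robust moderation, array weights or the clock term, where 3.89%, 8.6% and 4.4% of all genes were. With the replicate block 6 members were called at 8 months, 5 of them shared, with Cox7a2l lost and Ndufaf4 gained; same-numbered arrays correlated above 0.1 in 2 of 6 pairs there and in 1 of 4 at 4 months.

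The 8 other pathway lists had 1 gene called at 2 months, which became 2 after either quantile normalization, 0 with the 2-month arrays alone, 15 with array weights, 4 with the replicate block, 3 with the clock term, 5 within arrays 1 to 4, 6 within arrays 5 and 6 and 6 with these as a batch term. Their 2 calls at 4 months became 1 with the 4-month arrays alone, the clock term or controls 3 and 4 left out, and 9 with array weights. Leaving out 1 array gave 0 to 7, 1 to 2 and 12 to 20 at the 3 ages, and a 4-month hypoxia median of 0.0253 to 0.0987. With the clock term the 4-month medians were -0.0521 for all members, -0.0531 for complex I, -0.167 for assembly factors, -0.0290 for complex II and -0.0602 for complex V. In the lists they were -0.0710 for other assembly factors, -0.0568 for mitochondrial ribosomal proteins, 0.0013 for carriers and -0.0019 for glycolysis. The 2-month median of regulators within arrays 5 and 6 was -0.19. Without controls 3 and 4 the 4-month medians were 0.0069 for complex III, -0.00312 for carriers, 0.033 for glycolysis and -0.0015 for hypoxia targets. The causes of these moves were not tested.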
